A study of Mus musculus with 21 samples.

Results

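The genes described here are 10 genes of the red blood cell programme, Gata1, Klf1, Gfi1b, Zfpm1, Nfe2, Epor, Tfrc, Ermap, Car1 and Car2, measured on 21 mouse expression arrays. They were taken by name, with no rule on measured values. Every probe set annotated to 1 of these genes alone was used, which gave 16 of the 45101 probe sets. Each gene was represented by its probe set of highest mean log2 intensity over the 21 arrays, so that 10 of 18194 genes were followed, and no filter on low values was applied. The study asked what loss of Dot1l, the enzyme that methylates histone H3 at lysine 79, does to 2 populations sorted from mouse bone marrow. LSK cells are lineage negative and positive for Sca-1 and Kit, and hold the stem cells and the earliest multipotent progenitors. GMPs, granulocyte macrophage progenitors, are a later population that gives rise to neutrophils and monocytes.

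The 4 groups were GMP-Dot (GMPs with Dot1l deleted, 4 arrays), GMP-Control (control GMPs, 5 arrays), LSK-Dot (LSK cells with Dot1l deleted, 6 arrays) and LSK-Control (control LSK cells, 6 arrays). All mice were C57/BL6 and carried Mx-Cre. The deleted groups were Dot1l fl/fl x Mx-Cre and the controls Dot1 wt/wt x Mx-Cre, so the controls carry the same Cre without the floxed allele. Mx-Cre is switched on by interferon, here through injection of PIPC (polyinosinic-polycytidylic acid), and acts in blood cells and in some other tissues, so the deletion was not limited to 1 cell type. Neither the age of the mice nor the time between injection and sorting is given in the sources at hand. Each array carries a K number, and no number occurs in both genotypes, so anything that the number marks cannot be told apart from the genotype. Nothing says that arrays of 1 group came from separate mice, and the p-values below then measure only the spread between these arrays.

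Red cells arise from multipotent progenitors through a megakaryocyte and erythroid branch, while GMPs lie on the myeloid branch. GATA1, a zinc finger transcription factor, drives the erythroid branch together with its cofactor FOG1, the product of Zfpm1. KLF1 binds CACCC elements and activates globin and many other red cell genes, GFI1B is a repressor needed for both red cells and megakaryocytes, and NFE2 is the blood-specific subunit of NF-E2, which acts on globin genes and in platelet formation. EPOR is the receptor for erythropoietin, which keeps erythroid progenitors alive, and TFRC, the transferrin receptor, takes up the iron needed for haem and is present on most dividing cells. ERMAP is a membrane protein of the immunoglobulin superfamily on erythroid cells. CAR1 and CAR2 are cytosolic carbonic anhydrases, which interconvert carbon dioxide and bicarbonate in red cells, and Car1 marks early erythroid progenitors.

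The genes lie on chromosome X (Gata1), 2 (Gfi1b), 3 (Car1 and Car2, both in 1 carbonic anhydrase cluster), 4 (Ermap), 8 (Klf1 and Zfpm1), 9 (Epor), 15 (Nfe2) and 16 (Tfrc). The sequence upstream of the start was at hand from RefSeq (GRCm38.p6) for 7 of the 10 genes, not for Nfe2, Car1 or Car2. Because GATA1 and KLF1 are themselves among the genes, each 250-base upstream window was searched on both strands for a GATA motif (AGATAA, its variant AGATAG, the related TGATAA or its variant TGATAG) and for CACCC. Promoters of 4 genes, Klf1, Epor, Gfi1b and Ermap, held a GATA motif, as did 26.5% of the same windows of 32851 RefSeq starts. CACCC was found in 7 of 7, and in 52.0% of all windows. The 4 genes with both are printed because they hold the letters that the 2 factors recognise, with the matches in capitals: Klf1 at chr8:84901732-84901981 on the plus strand, Epor at chr9:21963577-21963826, Gfi1b at chr2:28621983-28622232 and Ermap at chr4:119189996-119190245, these on the minus strand. Each runs 5′ to 3′ on the gene's own strand and ends at the base before the start. Capitals that begin with TT are GATA motifs of the other strand, and those that begin with GGG are CACCC elements of the other strand.
Klf1: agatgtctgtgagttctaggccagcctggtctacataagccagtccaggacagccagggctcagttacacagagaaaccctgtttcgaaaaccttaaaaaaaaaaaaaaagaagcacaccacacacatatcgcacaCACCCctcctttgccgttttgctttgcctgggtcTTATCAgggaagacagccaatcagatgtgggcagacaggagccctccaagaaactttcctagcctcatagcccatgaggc
Epor: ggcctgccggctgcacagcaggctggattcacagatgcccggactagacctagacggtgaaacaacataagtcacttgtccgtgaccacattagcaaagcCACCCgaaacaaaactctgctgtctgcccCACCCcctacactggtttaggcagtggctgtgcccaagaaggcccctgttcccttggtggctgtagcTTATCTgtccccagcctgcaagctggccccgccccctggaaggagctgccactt
Gfi1b: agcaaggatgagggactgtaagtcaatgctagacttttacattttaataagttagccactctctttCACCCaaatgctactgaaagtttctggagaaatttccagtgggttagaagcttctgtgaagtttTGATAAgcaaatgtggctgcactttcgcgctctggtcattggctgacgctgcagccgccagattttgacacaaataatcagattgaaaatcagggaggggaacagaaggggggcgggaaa
Ermap: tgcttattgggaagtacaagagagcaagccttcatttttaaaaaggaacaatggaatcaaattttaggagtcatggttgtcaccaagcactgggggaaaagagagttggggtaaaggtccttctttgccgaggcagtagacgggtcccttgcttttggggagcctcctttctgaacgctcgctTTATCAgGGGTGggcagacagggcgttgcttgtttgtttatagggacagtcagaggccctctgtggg
Windows with both kinds of match made up 11.8% of all windows. These matches are a description of letters, not of bound sites.

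One array and a pair of arrays have to be known before the results. LSK-Dot K1272 stood apart: its mean Spearman correlation with the other LSK-Dot arrays was 0.684, against 0.855 or more for every other LSK array within its own group. Its upper quartile of log2 intensity was 6.18, against 6.60 to 6.78 on the other LSK arrays. Kit, which defines the LSK sort, was 5.0 on it and 7.58 to 9.96 on the other LSK-Dot arrays, and Cd34 was 5.20 on it against 9.52 or more. Among the genes described here it was the highest of the 12 LSK arrays for 5 (Gata1, Klf1, Epor, Gfi1b and Zfpm1) and the lowest for 3 (Car1, Car2 and Tfrc), and the differences of the 10 genes that involve LSK-Dot are given with and without it. GMP-Dot K1190 and K1272 were nearly alike, with a Spearman correlation of 0.982, while the other pairs of GMP-Dot arrays lay between 0.846 and 0.886. The upper quartile was 6.71 and 6.77 on those 2 arrays and 6.27 and 6.31 on GMP-Dot K1359 and K1421. On the GMP-Control arrays it was 6.19 to 6.57, below every LSK-Control array (6.60 to 6.76). Between the controls the upper quartile therefore cannot be told apart from the cell type. With it as a covariate, 3.26% of all genes passed there. GMP-Control K1603 had the lowest mean correlation with its own group among the GMP arrays, 0.811. Neither of the 2 Dot1l probe sets passed the test in either cell type: the log2 difference between GMP-Dot and GMP-Control was -0.52 and -0.54, and that between LSK-Dot and LSK-Control -0.10 and -0.19. Where those probe sets lie relative to the deleted part is not given, so they do not check the labels.

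**Figure D1:**
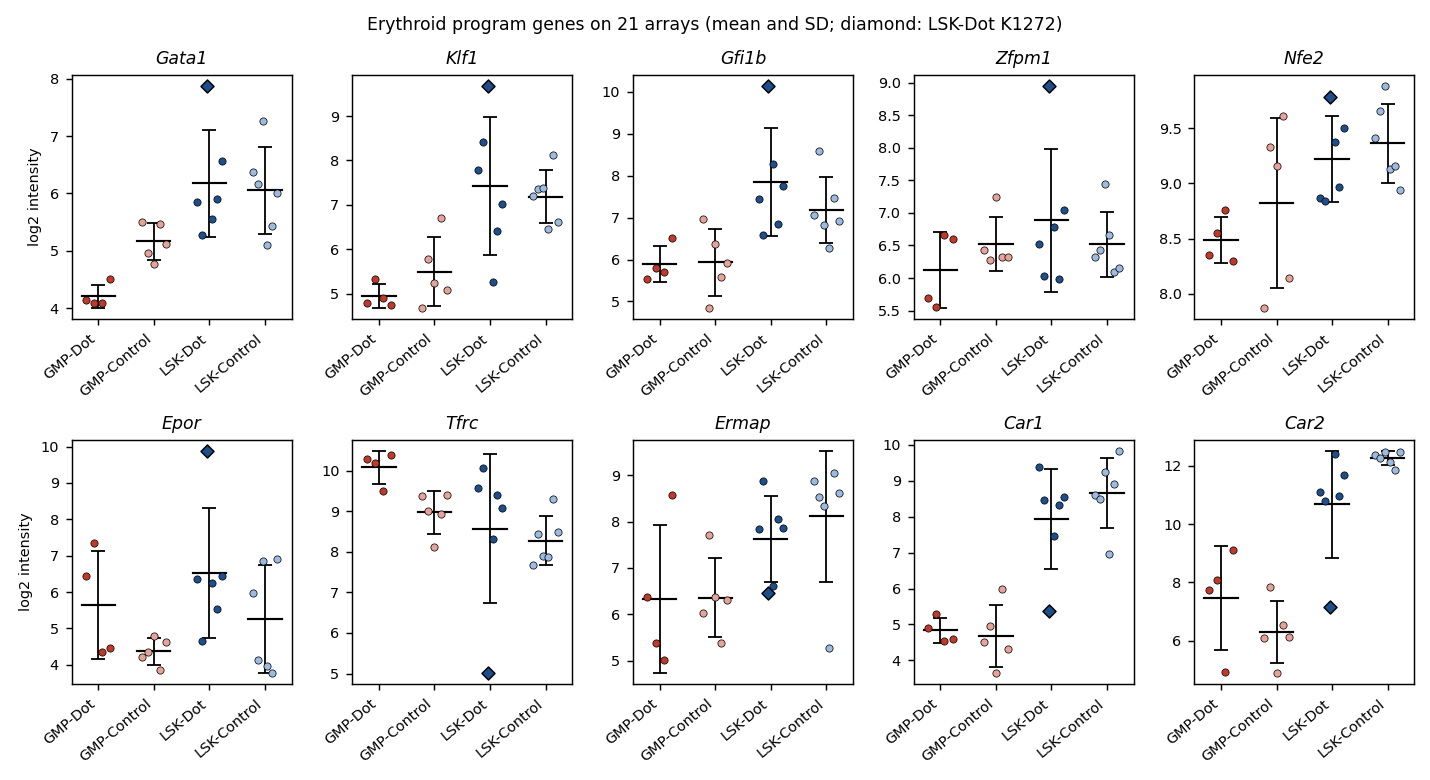
Log2 intensity of the 10 genes on each of the 21 arrays, by group, with 1 point an array, the mean as a long bar and the SD as whiskers. Car1 and Car2 sat far lower in both GMP groups than in most LSK arrays, and LSK-Dot K1272 (diamond) was the top LSK array for 5 genes and the bottom one for 3.

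In control cells, the erythroid genes that differed most between GMPs and LSK cells were the 2 carbonic anhydrases. Car2 and Car1 were lower in GMP-Control than in LSK-Control by 62.6-fold and 15.8-fold, and they were the only 2 of the 10 genes past an adjusted p of 0.05 in limma's test over all 18194 genes. Of all genes, 12% passed in either direction and 4.95% passed as lower. The transcription factors Klf1, Gfi1b and Gata1 had lower means in GMP-Control without passing, and Zfpm1 had nearly the same mean in both. Fewer cells of an erythroid type among the sorted cells and less RNA per cell cannot be told apart in such bulk samples.

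Car2 parted the control groups most. It measured 4.88, 6.10, 6.13, 6.54 and 7.83 on the log2 scale in GMP-Control, against a lowest value of 11.85, a median of 12.33 and a highest value of 12.49 in LSK-Control. The highest GMP-Control array was thus well under the lowest LSK-Control array, with a log2 difference of -5.97 ± 0.76 (SE, adjusted p = 0.00014). The 6 LSK-Control arrays were tightly grouped, with an SD of 0.24, while the SD over the 5 GMP-Control arrays was 1.06.

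Car1 followed the same order. It measured 3.65, 4.32, 4.51, 4.95 and 5.99 in GMP-Control, against 6.95, 8.75 and 9.83 as the lowest, median and highest values in LSK-Control. The values on GMP-Control K1603, K1581 and K1601 were under their array medians of 4.90, 4.77 and 4.87. They cannot be told apart from background, and the fold difference rests partly on them. The groups did not overlap, and the log2 difference was -3.98 ± 0.58 (SE, adjusted p = 0.000343). The lowest LSK-Control array and the highest GMP-Control array for Car1 both carried the number K1604. Car1 and Car2 passed under all 36 alternative settings, with log2 differences of -4.33 to -2.85 for Car1 and -6.35 to -4.25 for Car2. They were also the only 2 of the 10 whose control groups did not overlap, a pattern shown by 14.7% of all genes.

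The transcription factors had smaller differences. Klf1 measured 4.69, 5.08, 5.23, 5.78 and 6.71 in GMP-Control, against 6.46, 7.27 and 8.12 as the lowest, median and highest values in LSK-Control. The groups overlapped because GMP-Control K1604, at 6.71, lay above the LSK-Control arrays K1604 and K1553, at 6.46 and 6.60, and the log2 difference of -1.69 ± 0.56 had an adjusted p of 0.0546. Gfi1b measured 4.85, 5.58, 5.92, 6.36 and 6.97 in GMP-Control, against 6.26, 6.99 and 8.58 in LSK-Control, with a difference of -1.25 ± 0.53 (adjusted p = 0.11). Gata1 itself measured 4.76, 4.97, 5.12, 5.47 and 5.51 in GMP-Control and 5.10, 6.08 and 7.27 as the lowest, median and highest values in LSK-Control. Its difference of -0.89 ± 0.40 had an adjusted p of 0.125. Nfe2 had means of 8.82 ± 0.77 in GMP-Control and 9.37 ± 0.36 in LSK-Control (SD) and a difference of -0.54 ± 0.29 (SE, adjusted p = 0.19).

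The membrane genes did not pass either. Ermap had means of 6.36 ± 0.85 in GMP-Control and 8.11 ± 1.41 in LSK-Control (SD), and a difference of -1.75 ± 0.68 (SE, adjusted p = 0.0895). On 5 of the 6 LSK-Control arrays Ermap lay between 8.32 and 9.03, and on K1604 it was 5.28. Without LSK-Control K1604 the Ermap difference was -2.31 ± 0.58 and passed (adjusted p = 0.0216), as did 7.28% of all genes. Epor spread over more than 3 log2 units in LSK-Control, from 3.77 on K1581 up to 6.92 on K1553, and lay between 3.86 and 4.80 in GMP-Control, so the difference of -0.90 ± 0.80 was close to its error. Every GMP-Control value of Epor was under its array median (4.65 to 4.90) and cannot be told apart from background. The same holds for Epor on LSK-Control K1602, K1604 and K1581. Tfrc was the one gene with a higher mean in GMP-Control beyond 0.1 log2 units, 8.97 ± 0.52 against 8.28 ± 0.60 (SD), with a difference of 0.69 ± 0.62 (SE, adjusted p = 0.411). LSK-Control K1604 was the lowest array of its group for 5 of the 10 genes (Gata1, Klf1, Gfi1b, Car1 and Ermap), though not for Car2.

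The count in control cells depended on 1 array of another group, because all groups share 1 estimate of the spread. Without LSK-Dot K1272, 5 of the 10 genes passed as lower in GMP-Control: Car2 (adjusted p = 1.04e-05), Car1 (adjusted p = 3.15e-05), Klf1 (adjusted p = 0.0134), Gfi1b (adjusted p = 0.0295) and Gata1 (adjusted p = 0.0367). Their differences stayed as given above, since no control array was left out. In that fit 30.4% of all genes passed in either direction. Over the 10 genes the median log2 difference was -1.08, and over all genes it was 0.29. The difference was below 0 for 8 of the 10 genes, against 34.2% of all genes. Both all-gene figures include dim genes. With all arrays and only the 9097 genes above the median level, the all-gene median was -0.07, and 15.6% passed. The genes described here that were tested there, without Gata1 and Epor, had a median of -1.47.

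**Figure D2:**
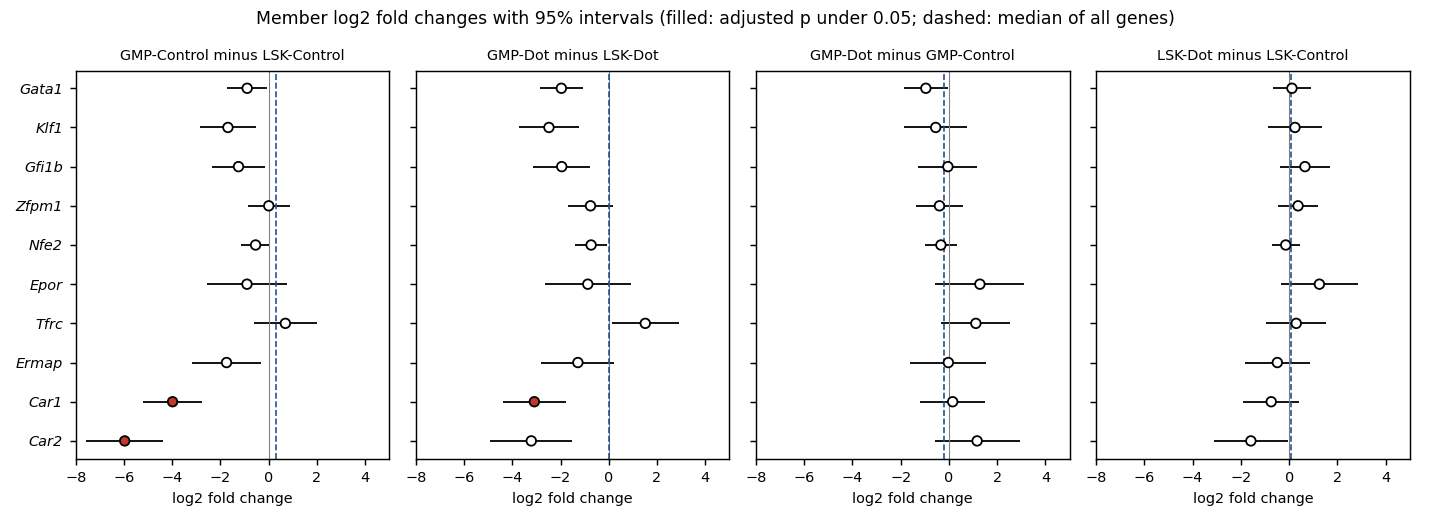
Log2 fold change of each gene in 4 comparisons, with 95% intervals from the limma fit, filled points for an adjusted p under 0.05 and a dashed line at the median of all genes. The filled points are Car1 and Car2 between the control groups and Car1 between the deleted groups, and the intervals of the 2 right panels, GMP-Dot against GMP-Control and LSK-Dot against LSK-Control, span 0 except for Gata1 in the first and Car2 in the second.

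Among cells with Dot1l deleted, Car1 was again lower in GMPs than in LSK cells. It was 8.5-fold lower in GMP-Dot than in LSK-Dot and narrowly passed the test, as the only one of the 10 genes, and 0.143% of all genes passed. The groups did not overlap for 4 genes, Gata1, Gfi1b, Nfe2 and Car1, all lower in GMP-Dot, and 0.929% of all genes had no overlap in that direction. The GMP-Dot and LSK-Dot groups share no array with the controls, so this comparison rests on other arrays than the one above, though on the same estimate of spread.

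Car1 measured 4.53, 4.60, 4.91 and 5.30 in GMP-Dot, against 5.37, 8.39 and 9.37 as the lowest, median and highest values in LSK-Dot. The values on GMP-Dot K1359 and K1421, 4.53 and 4.60, were under their array medians of 4.79 and 4.78. They cannot be told apart from background, and the fold difference rests partly on them. The lowest LSK-Dot array was K1272, which was just above the highest GMP-Dot array. The difference was -3.09 ± 0.62 (SE, adjusted p = 0.0499), and over the alternative settings the adjusted p lay between 3.52e-08 and 0.418. Without K1272 the difference was -3.60 ± 0.50 (SE, adjusted p = 0.00541).

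Gata1 was at nearly 1 level in GMP-Dot, with 4.08, 4.09, 4.14 and 4.50, against 5.28, 5.88 and 7.88 as the lowest, median and highest values in LSK-Dot. Those 4 GMP-Dot values lay below the median log2 intensity of their arrays, 4.65 to 4.79. Without detection flags they cannot be told apart from background, and their narrow spread may be that of a floor. All 4 GMP-Dot arrays lay below every LSK-Dot array, with a gap of 0.78 log2 units. The difference of -1.97 ± 0.42 did not pass (adjusted p = 0.076). Without K1272, the highest LSK-Dot array, it was -1.63 ± 0.34 and passed (adjusted p = 0.0341).

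Klf1 measured 4.75, 4.79, 4.91 and 5.33 in GMP-Dot, against 5.26, 7.40 and 9.69 as the lowest, median and highest values in LSK-Dot. One LSK-Dot array, K1359, was within the GMP-Dot range, and the difference was -2.48 ± 0.60 (adjusted p = 0.115), or -2.03 ± 0.51 without K1272. Gfi1b measured 5.54, 5.70, 5.80 and 6.52 in GMP-Dot, against 6.57, 7.60 and 10.15 in LSK-Dot, with a difference of -1.95 ± 0.56 (adjusted p = 0.206), or -1.49 ± 0.45 without K1272. Its groups were parted by 0.056 log2 units. Nfe2 measured 8.29, 8.35, 8.55 and 8.75 in GMP-Dot, against 8.84, 9.17 and 9.78 in LSK-Dot. The SDs were 0.21 and 0.39, and the difference of -0.74 ± 0.31 had an adjusted p of 0.586 and was -0.62 ± 0.31 without K1272.

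Car2 was widely spread in both deleted groups. It measured 4.91, 7.75, 8.09 and 9.11 in GMP-Dot, against 7.14, 11.04 and 12.39 as the lowest, median and highest values in LSK-Dot. The overlap came from K1272 alone, since the next lowest LSK-Dot array was 10.78. The difference of -3.22 ± 0.81 (adjusted p = 0.133) became -3.92 ± 0.63 (adjusted p = 0.0123) without that array. In all, 3 of the 10 genes passed without K1272 (Gata1, Car1 and Car2), and 0.605% of all genes. The remaining genes had differences of -1.28 ± 0.73 (Ermap), -0.87 ± 0.85 (Epor), -0.76 ± 0.45 (Zfpm1) and 1.51 ± 0.66 (Tfrc), none past the threshold. Without K1272 they were -1.51 ± 0.75 (Ermap), -0.20 ± 0.71 (Epor), -0.35 ± 0.32 (Zfpm1) and 0.80 ± 0.37 (Tfrc), so that array moved the last 3 by more than 1.5 times.

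Over the 10 genes the median log2 difference between GMP-Dot and LSK-Dot was -1.62 (-1.50 without K1272), against 0.01 over all genes, and it was below 0 for 9 of the 10 genes, against 48.6% of all genes. An unadjusted p under 0.05 was reached by 7 of the 10, against 7.28% of all genes. No gene other than Tfrc had a higher mean in GMP-Dot than in LSK-Dot, and of the 5 other Tfrc probe sets 3 were higher and 2 lower there.

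**Figure D3:**
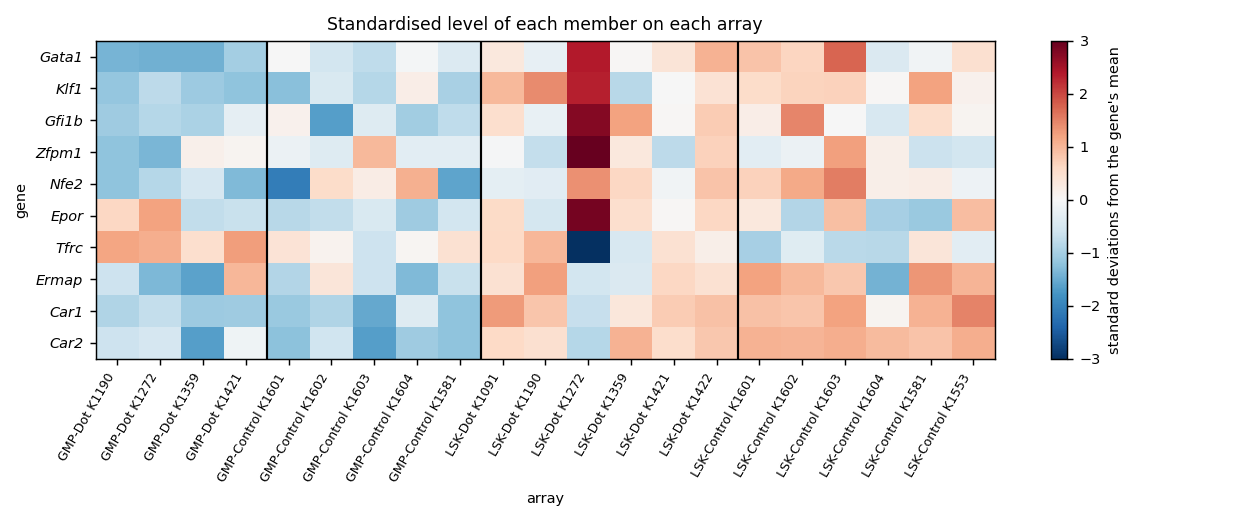
Level of each gene (rows) on each array (columns, GMP-Dot, GMP-Control, LSK-Dot and LSK-Control), in standard deviations from the gene's mean over the 21 arrays. Most genes are blue over the 9 GMP arrays and red over the LSK arrays, Tfrc runs the other way on the GMP-Dot arrays, and LSK-Dot K1272 shows the darkest reds and the darkest blue.

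Between GMP-Dot and GMP-Control none of the 10 genes passed the threshold, and 0.143% of all genes did. The 2 genes whose groups did not overlap were Gata1, lower in all 4 GMP-Dot arrays, and Tfrc, higher in all 4, and 4.78% of all genes had no overlap in either direction. Only 1 of the 10, Gata1, had an unadjusted p under 0.05, which is close to the share of 13.9% of all genes. The median over the 10 genes was -0.04 and that over all genes -0.20. Among the 9097 genes above the median level the all-gene median was 0.0002.

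For Gata1, the 4 GMP-Dot values of 4.08 to 4.50 set out above, all under their array medians, stood against 4.76 to 5.51 in GMP-Control. The means were 4.20 ± 0.20 and 5.16 ± 0.32 (SD), and the difference was -0.96 ± 0.44 (SE, adjusted p = 0.343).

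Tfrc, by its brightest probe set, measured 9.49, 10.18, 10.28 and 10.38 in GMP-Dot, against 8.12, 8.94, 8.996, 9.38 and 9.41 in GMP-Control. The lowest GMP-Dot array lay 0.08 log2 units above the highest GMP-Control array. The difference was 1.11 ± 0.69 (SE, adjusted p = 0.443), and in a fit that also held the array upper quartile it was 0.50 ± 0.60.

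Epor and Car2 had higher means in GMP-Dot, carried by part of the arrays. Epor measured 6.44 and 7.35 on the near-identical arrays K1190 and K1272 and 4.34 and 4.47 on K1359 and K1421, against 3.86 to 4.80 in GMP-Control. All of these Epor values except those of the close pair were under their array medians and cannot be told apart from background. Thus only the close pair lay above the controls, and the difference of 1.28 ± 0.88 had an adjusted p of 0.477. The upper quartile of intensity, higher on the same 2 arrays, moved with this split, and with it as a covariate the Epor difference was 1.44 ± 0.96. Car2 lay above 7.7 on 3 of the 4 GMP-Dot arrays and at 4.91 on K1359, and the difference was 1.17 ± 0.85 (adjusted p = 0.494).

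The other genes differed little between GMP-Dot and GMP-Control. Klf1 had a difference of -0.55 ± 0.62, Zfpm1 of -0.40 ± 0.47 and Nfe2 of -0.34 ± 0.32. For Gfi1b, Ermap and Car1 the difference was -0.05 ± 0.59, -0.03 ± 0.76 and 0.15 ± 0.64, and its sign changed under some alternative settings, as did that of Zfpm1 under 1. The 95% intervals of these 3 ran from -1.27 to 1.18 for Gfi1b, from -1.60 to 1.55 for Ermap and from -1.19 to 1.497 for Car1, so each includes differences of more than 2-fold in both directions.

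Between LSK-Dot and LSK-Control none of the 10 genes passed either, and no gene of the 18194 did (0%). At an unadjusted p under 0.05, 1021 of all genes (5.61%) and 1 of the 10, Car2, were counted. No gene of the 10 had groups without overlap, against 0.33% of all genes.

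Car2 was lower in LSK-Dot, with a lowest value of 7.14, a median of 11.04 and a highest value of 12.39, against 11.85, 12.33 and 12.49 in LSK-Control. Of the 6 LSK-Dot arrays, 5 lay below every LSK-Control array and K1359 lay within their range. The difference was -1.59 ± 0.73 (SE, adjusted p = 0.881), and without K1272 it was -0.88 ± 0.57 (adjusted p = 0.9998). The SD was 1.83 in LSK-Dot and 0.24 in LSK-Control, and 0.66 in LSK-Dot without K1272.

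For 3 of the 5 transcription factors, Gata1, Klf1 and Zfpm1, the sign turned when K1272 was left out. Gata1 had means of 6.17 ± 0.94 in LSK-Dot and 6.06 ± 0.76 in LSK-Control (SD), with a difference of 0.12 ± 0.38 that was -0.23 ± 0.31 without the array. Klf1 had a difference of 0.24 ± 0.54, and -0.21 ± 0.46 without it. Zfpm1 had a difference of 0.37 ± 0.40, and -0.04 ± 0.29 without it. Gfi1b, at 10.15 on K1272 and 6.57 to 8.28 on the other LSK-Dot arrays, had a difference of 0.66 ± 0.50, and 0.19 ± 0.41 without it. Nfe2 differed by -0.14 ± 0.28, and by -0.25 ± 0.28 without it.

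Epor and Tfrc were moved in opposite directions by the same array. Epor was 9.88 on K1272 and 4.66 to 6.43 on the other LSK-Dot arrays, against 3.77 to 6.92 in LSK-Control, and its difference of 1.25 ± 0.76 was 0.58 ± 0.64 without K1272. Tfrc was 5.01 on K1272 and 8.31 to 10.06 on the others, against 7.67 to 9.30 in LSK-Control, and its difference of 0.29 ± 0.59 was 1.01 ± 0.33 without it (adjusted p = 0.532). The 5 other Tfrc probe sets gave -0.89 to 1.62 with all arrays and -0.48 to 2.08 without K1272. Car1 and Ermap had differences of -0.74 ± 0.55 and -0.49 ± 0.65, which were -0.23 ± 0.45 and -0.26 ± 0.68 without it.

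Whether deletion acted differently in the 2 cell types was tested as the GMP difference minus the LSK difference. None of the 10 genes passed, and 0.033% of all genes did. The size was largest for Car2, at 2.75 ± 1.12 (SE, adjusted p = 0.326), since its mean was higher in GMP-Dot than in GMP-Control and lower in LSK-Dot than in LSK-Control. Next came Gata1, at -1.08 ± 0.58 (adjusted p = 0.392). Without K1272 the values were 2.05 ± 0.85 for Car2 and -0.73 ± 0.46 for Gata1. Leaving it out moved the value of Epor to 0.70 ± 0.96, against 0.03 ± 1.17 with all arrays, and that of Tfrc to 0.11 ± 0.49, against 0.82 ± 0.91. The values of Klf1, Gfi1b and Zfpm1 were -0.79, -0.70 and -0.76 with all arrays and -0.34, -0.24 and -0.35 without it. Those of Nfe2, Car1 and Ermap were -0.19, 0.90 and 0.46 with all arrays and -0.08, 0.39 and 0.23 without it.

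Zfpm1 and Tfrc had further probe sets, which did not all follow the chosen one. For Zfpm1, the probe set 1451046_at was at 4.20, 4.50, 4.51 and 4.52 in GMP-Dot, against 4.57, 5.19, 5.86, 5.94 and 6.24 in GMP-Control and 5.74 to 7.80 in LSK-Dot. It therefore lay below both of those groups on all 4 GMP-Dot arrays, as Gata1 did. Like those of Gata1, these GMP-Dot values were under the array medians of 4.65 to 4.79 and cannot be told apart from background. Its difference was -1.13 ± 0.52 against GMP-Control (adjusted p = 0.36 over all probe sets) and -2.14 ± 0.50 against LSK-Dot (adjusted p = 0.135, and -1.90 ± 0.49 without LSK-Dot K1272). The chosen Zfpm1 probe set, 1423603_at, was 5.56 and 5.69 on the close pair K1272 and K1190 and 6.60 and 6.65 on the other 2 GMP-Dot arrays, within or above most of the GMP-Control range of 6.27 to 7.25. In control cells the 2 probe sets gave -1.01 ± 0.47 and 0.00 ± 0.42.

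For Tfrc, all 6 probe sets had a higher mean in GMP-Dot than in GMP-Control, with differences of 0.84 to 2.09, none past the threshold. The largest was that of 1422967_a_at, at 8.02, 9.76, 9.81 and 10.03 in GMP-Dot, against 4.96, 7.43, 7.77, 7.94 and 8.48 in GMP-Control (2.09 ± 0.65, adjusted p = 0.209). On 1422966_a_at the close pair of GMP-Dot arrays was at 8.46 and 9.15 and the others at 2.96 and 3.16, so that probe set was bimodal within the group, while the brightest probe set was not. Between control cells the probe sets went against each other: the brightest gave 0.69 and the other 5 gave -0.05 to -1.59, so no direction can be given for Tfrc there.

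**Figure D4:**
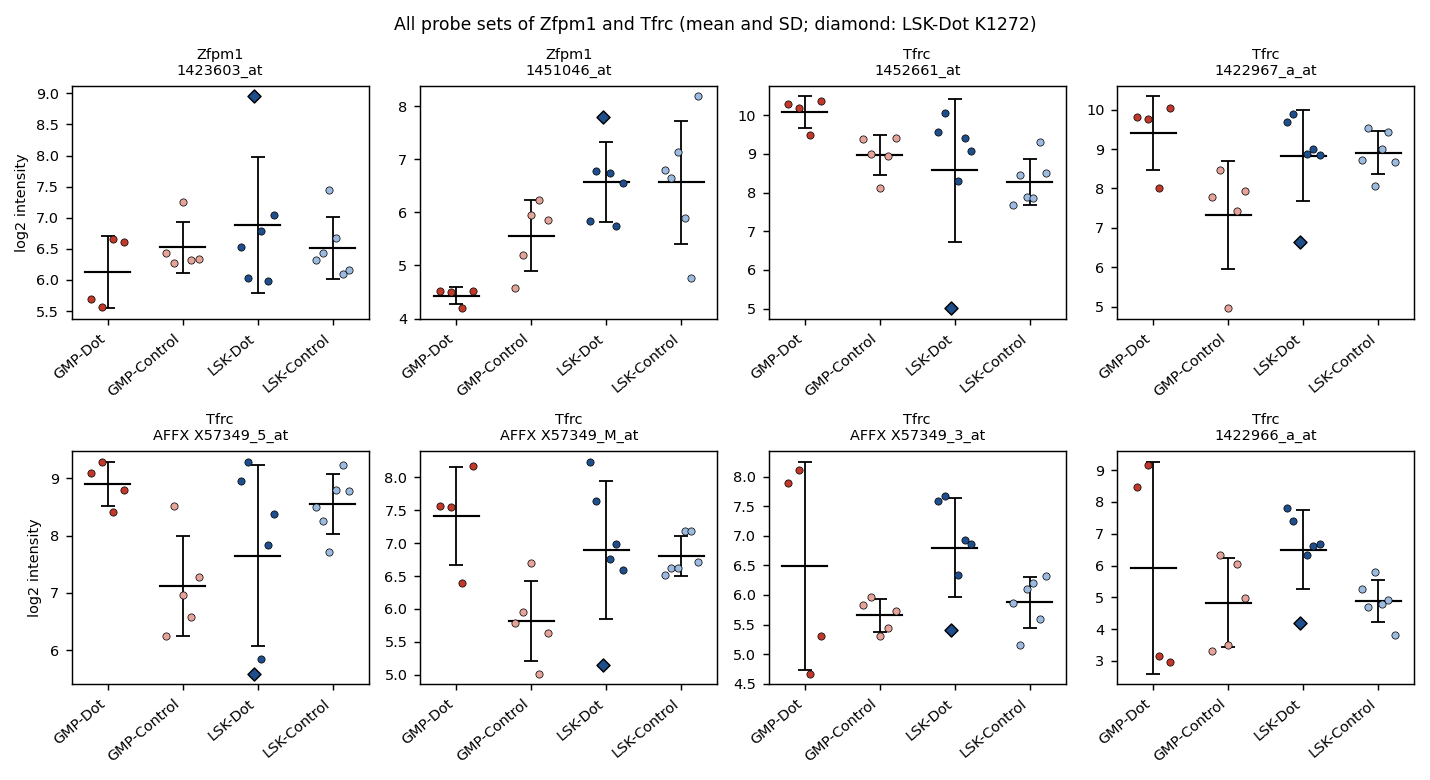
Log2 intensity of the 2 Zfpm1 and 6 Tfrc probe sets on each array, by group, with means and SDs. The second Zfpm1 probe set is tightly grouped at 4.20 to 4.52 in GMP-Dot, and 2 Tfrc probe sets split the 4 GMP-Dot arrays into 2 and 2.

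Other genes of the erythroid pathway were followed as lists. Of 14 transcription factors and cofactors that work with GATA1, 7 were lower in GMP-Control than in LSK-Control and none was higher. Tal1, which binds with GATA1 in a shared complex, fell by 2.76 ± 0.44, Gata2, the GATA factor of earlier progenitors, by 2.92 ± 0.49, Bcl11a, a repressor of fetal globin, by 1.81 ± 0.36, and Cbfa2t3, a corepressor of that complex, by 1.53 ± 0.38 on the log2 scale (SE, adjusted p of 0.000651, 0.00114, 0.0041 and 0.0142). Foxo3, Lmo2 and Klf3 also passed. The list's median was -1.37. Between GMP-Dot and LSK-Dot none of the 14 passed, with Gata2 at -1.69 ± 0.53 and Tal1 at -1.47 ± 0.47, and none passed for deletion in either cell type. The smallest p in LSK cells was that of Bcl11a, at -1.14 ± 0.34 (adjusted p = 0.484), and in GMPs that of Lyl1, at -0.71 ± 0.52 (adjusted p = 0.501).

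Of 30 globin and late red cell genes, 22 were measured, and 1 passed between control cells: Aqp1, a water channel of red cells and endothelium, fell by 2.45 ± 0.43 in GMP-Control (SE, adjusted p = 0.00149). The list's medians were 0.09 between control cells and -0.06 between deleted cells, and 0 of the 22 passed for deletion in GMPs or in LSK cells. The smallest p-values there were those of Xpo7, a nuclear export factor, at 1.52 ± 0.50 in GMPs (adjusted p = 0.226), and of Bpgm, which makes bisphosphoglycerate in red cells, at -1.05 ± 0.54 in LSK cells (adjusted p = 0.934). The alpha globin gene Hba-a2 had means of 10.63 ± 0.50 in GMP-Dot, 11.03 ± 0.37 in GMP-Control, 10.92 ± 0.29 in LSK-Dot and 10.67 ± 0.54 in LSK-Control (SD). The summed intensity of the 22 genes was 4784 to 5696 in GMP-Dot, 4273 to 5718 in GMP-Control, 3697 to 5866 in LSK-Dot and 3904 to 6460 in LSK-Control, so it overlapped between all groups, unlike Car1 and Car2 between the controls.

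Of 12 measured genes of erythropoietin receptor signalling, Pim1, a survival kinase, and Jak2, the kinase bound to the receptor, were lower in GMP-Control than in LSK-Control, with differences of -1.41 ± 0.37 and -2.35 ± 0.76 (adjusted p = 0.0195 and 0.0491). None of the 12 passed in another comparison, and in GMPs the smallest p was that of Socs3, a feedback inhibitor, at -1.12 ± 0.41 for deletion (adjusted p = 0.255). Of 12 measured genes of iron handling, 1 rose in GMP-Control against LSK-Control, Hfe, a partner of the transferrin receptor, by 2.75 ± 0.56 (adjusted p = 0.0047). Tfr2, the second transferrin receptor, was 5.31 in GMP-Dot and 6.58 in LSK-Dot, a difference of -1.27 ± 0.41 (adjusted p = 0.288).

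Of the 16 carbonic anhydrases measured, Car1 and Car2 were thus the 2 lower in GMP-Control, while Car9 and Car15 were higher, by 1.70 ± 0.44 and 0.66 ± 0.19 (adjusted p = 0.0186 and 0.0335). In GMPs, Car9 came nearest the threshold for deletion, at -2.01 ± 0.49 (adjusted p = 0.108), and in LSK cells Car12, at 2.12 ± 0.41 (adjusted p = 0.0879).

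Markers of other cells that such sorts could hold were measured beside these. Of 15 megakaryocyte and platelet genes, 3 were lower in GMP-Control than in LSK-Control: Fli1, with a difference of -2.07 ± 0.56, Pf4, with -2.61 ± 0.73, and F2rl2, with -1.76 ± 0.52 (adjusted p of 0.0233, 0.0268 and 0.0357). The summed intensity of the 15 genes was 877 to 1009 in GMP-Dot, 590 to 1027 in GMP-Control, 1032 to 3127 in LSK-Dot and 1485 to 2512 in LSK-Control. It was thus lower in GMPs than in LSK cells, as were the means of Gata1, Gfi1b and Klf1, and its part in their difference was not tested. Unlike Gata1, it overlapped between GMP-Dot and GMP-Control. Of the LSK arrays, K1272 had the highest sum, at 3127, against 1032 to 2418 on the other LSK-Dot arrays. Of the 15 genes, 7 were above all other LSK-Dot arrays on K1272, among them Pf4 (10.29 against 6.62 to 9.06), 4 were below all of them, among them Fli1 (5.61 against 7.90 to 8.80), and 4 lay within their range. Most of the 22 globin and late red cell genes were also above all other LSK-Dot arrays on K1272, among them Hbb-b2 (10.26 against 5.72 to 8.27). Fewer were below all of them, among them Bpgm (5.92 against 8.56 to 10.46), or within their range. The summed intensity of that list on K1272, 5337, lay within the 3697 to 5866 of the other LSK-Dot arrays. Of 8 stem cell and sort markers, Flt3, Procr and Kit fell in GMP-Control, by 5.07, 3.25 and 2.63. Their summed intensity was 2326 to 3056 in GMP-Dot, 474 to 3212 in GMP-Control and 3802 to 5692 in LSK-Control. In LSK-Dot it was 517 on K1272 and 2318 to 4701 on the others.

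The myeloid markers ran the other way. Of 12 neutrophil and monocyte progenitor genes, 7 rose in GMP-Control against LSK-Control, among them Prtn3 by 4.51 ± 0.57, Elane by 3.59 ± 0.54 and Ctsg by 3.35 ± 0.45, and 1, Fcgr3, rose in GMP-Dot against LSK-Dot, by 2.38 ± 0.45 (adjusted p = 0.0363). Of 6 eosinophil genes, 3 rose in GMP-Control, and Prg2 fell by 3.20 ± 0.63 in GMP-Dot against GMP-Control (adjusted p = 0.0465). Of 9 mast cell and basophil genes, Hdc rose by 4.04 ± 0.67 and Gata2 fell, as above, in GMP-Control against LSK-Control. None of 10 B and T cell genes passed in a comparison, and the smallest adjusted p was that of Cd3g between control cells, 0.0599. Without LSK-Dot K1272 more genes of these lists passed between the control groups, where the differences themselves stay as they were. There 30.4% of all genes passed, so the counts that follow are to be read beside that share. Of the B and T cell genes 4 then rose in GMP-Control, of the megakaryocyte genes 6 fell and 1 rose, of the neutrophil and monocyte genes 9 rose, and of the carbonic anhydrases 4 rose and 2 fell. In that fit Xpo7 (adjusted p = 0.0369) and Car9 (adjusted p = 0.0312) also passed between GMP-Dot and GMP-Control, where 2.14% of all genes passed. Between GMP-Dot and LSK-Dot, 3 neutrophil and monocyte genes then rose (Fcgr3, Elane and Gfi1), and Selp and Flt3 fell, against 0.605% of all genes in either direction.

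The genes whose pattern over the 21 arrays was most like that of Gata1 were sought by the root mean square difference of standardised log2 levels, where 0 is an identical pattern. They were Isg20 (0.431), Tmem158 (0.461), Vamp5 (0.519), Dok2 (0.56) and Shank3 (0.588). Vamp5, a vesicle protein, had means of 6.79 in GMP-Dot, 8.22 in GMP-Control, 8.96 in LSK-Dot and 8.76 in LSK-Control. Like Gata1 it had its lowest mean in GMP-Dot, with differences of -1.43 ± 0.28 against GMP-Control and -2.17 ± 0.27 against LSK-Dot (SE). Isg20, an exonuclease induced by interferon, had differences of -1.11 ± 0.51 and -2.35 ± 0.50 in the same 2 comparisons. These genes were picked for likeness to Gata1, so the values are a description.

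To the mean pattern of the 10 genes, the nearest were Lat (0.491), Cd74 (0.519), H2-Ab1 (0.533), Shank3 (0.541) and Spns2 (0.542). Within the 10, Car1 and Car2 were each other's nearest gene (0.441), as were Gata1 and Gfi1b (0.701). Gata1 was also the nearest of Klf1 (0.702), Nfe2 (0.809), Zfpm1 (0.813) and Epor (0.963), and Car1 that of Ermap (0.788). Tfrc stood farthest from the rest, at 1.35 to its nearest, Ermap. Likeness depended on LSK-Dot K1272. Over the 20 arrays without it, 3 of the 5 genes nearest to Gata1 were shared with those above (Isg20, Tmem158 and Vamp5), and none of the 5 nearest to the mean pattern, which were H2-Aa (0.41), Cadps2 (0.448), Aqp1 (0.474), Cd96 (0.484) and Rtp4 (0.502). Within the 10, 4 genes kept their nearest gene (Nfe2, Car1, Car2 and Ermap), and Car1 was then the nearest of Gata1 (0.667) and of Klf1 (0.544).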

How the data were processed

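RNA of sorted bone marrow cells was measured on 21 Affymetrix arrays, 1 per sample. The authors deposited 1 table of RMA values, per the submitters' processing notes; the deposited values are linear intensities, as their range shows, although RMA ordinarily gives log2 values, and no aligner or scanner step is given in the sources used here. Log2 of these intensities was taken here with no further scaling. Probe sets were named from the platform's annotation: 34958 of 45101 had 1 symbol, 932 several and 9211 none. One probe set a gene (highest mean) left 18194 genes. limma 3.58.1 in R 4.3.3 (lmFit, eBayes) fitted 4 group means over all 21 arrays, with Benjamini-Hochberg adjustment over all genes and a threshold of 0.05; further probe sets were adjusted over all probe sets. The code was tested on simulated data.

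The genes, lists and alternatives were chosen with earlier results of these data known. All 10 genes are named in every comparison; of each other list, genes past the threshold were named, up to 4 by smallest p, or up to 2 where none passed. The arrays carry no flags of detection, and their number limits the precision. The alternatives were another normalization, filters on dim genes, the treatment of probe sets, the model, array weights, the K number as a block and leaving out each array. Leaving LSK-Dot K1272 out of the other gene lists, the further probe sets and the likeness was chosen after seeing the data. GMP and LSK arrays share K numbers, but only 1 of 9 same-numbered pairs had deviations from the group means that correlated above 0.1 (range -0.397 to 0.272), so the numbers were not treated as pairs.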

Additional observations from a re-analysis of the deposited data

Results flagged for a closer look

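Of 64 sets of values examined (16 probe sets in 4 groups), 10 had 1 array far from the others of its group by Dixon's test, and chance alone gives about 1 in 20. On LSK-Dot K1272, 5 such values were found: Epor at 9.88 (next array 6.43) and Zfpm1 1423603_at at 8.95 (next 7.05) on the high side, and Car2 at 7.14 (next 10.78), Tfrc 1452661_at at 5.01 (next 8.31) and Tfrc 1422967_a_at at 6.65 (next 8.85) on the low side. The other 5 lay on different arrays. In GMP-Dot, Gata1 was 4.50 on K1421 (next 4.14), and K1359 held Zfpm1 1451046_at at 4.20 (next 4.50) and Tfrc 1422967_a_at at 8.02 (next 9.76). In GMP-Control, Zfpm1 1423603_at was 7.25 on K1603 (next 6.43). In LSK-Control, Ermap was 5.28 on K1604 (next 8.32).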

How the results depend on the processing

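Of the counts of genes past the threshold, that between GMP-Dot and LSK-Dot was the least stable: Car1 passed in 12 of 36 alternative settings. The gene that passed also changed: in place of Car1 it was Gata1 without LSK-Dot K1190 and Klf1 without LSK-Dot K1359. The count was 0 after a second quantile normalization, centring on medians, removal of probe sets with shared sequence, testing all probe sets, robust eBayes, fitting the 2 groups alone, averaging the close GMP-Dot arrays and adding the K number as a replicate block. It was 3 with the upper quartile as a covariate, where 0.561% of all genes passed, 8 with array quality weights, where 10.8% of all genes passed (weights of 0.0673 for LSK-Dot K1272 and 13.6 for GMP-Dot K1190) and 2 with K1272 left out and the close arrays averaged, an alternative chosen after seeing the data. Leaving out 1 array at a time gave 0 to 3 there and 2 to 5 between the controls, both highest without LSK-Dot K1272. Between the controls the count was 7 with quality weights (42.4% of all genes) and 5 with K1272 left out and the close arrays averaged. Klf1 passed there in 9 of 36 alternative settings. Among them were the fit of the 2 groups alone (adjusted p = 0.0134, with 24.4% of all genes passing) and centring on medians (adjusted p = 0.0467, with 10.6%). Quality weights also gave 4 for deletion in GMPs (Gata1, Epor, Car2 and Tfrc), where 42.1% of all genes passed, 2 in LSK cells (Car2 and Tfrc, against 6% of all genes) and 2 for the difference of effects (32.6% of all genes), where all other settings gave 0.

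With the replicate block, Car1 and Car2 still passed between the controls (-3.75 and -5.93). For GMPs against LSK cells and for the difference of effects, that fit held only K numbers present in both cell types. It left out LSK-Control K1553 and LSK-Dot K1091 and K1422. In it the difference of effects for Epor (-0.37) and the value of Zfpm1 between the controls (-0.069) changed sign. With only LSK-Control K1553 left out and no block, the Zfpm1 value was also -0.069, so the sign changes cannot be credited to the block.

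The following log2 differences changed sign, and none was past the threshold in the reported fit; the cause was not tested. For Zfpm1 between the controls the value was -0.055 with centring, -0.96 with the covariate, -0.50 with the mean of all probe sets and -0.13 with weights, and Tfrc was -0.60 with the mean of all probe sets. For deletion in GMPs, Gfi1b was 0.028 with centring, 0.57 with the covariate and 0.027 with the close arrays averaged, with or without K1272. Ermap was 0.048 with centring and 0.13 with the averaging, with or without K1272, and with the covariate Zfpm1 was 0.10 and Car1 -0.43. For deletion in LSK cells, weights gave -0.49 for Gata1, -0.014 for Epor and -0.17 for Zfpm1, and leaving out K1272 with averaging gave -0.23 for Gata1, -0.21 for Klf1 and -0.045 for Zfpm1. For the difference of effects, Epor was -0.015 after quantile normalization and -0.39 with averaging, Gfi1b 0.054 with the covariate and Tfrc -0.33 with weights. Epor between GMP-Dot and LSK-Dot was 0.76 with weights. Leaving out 1 array at a time gave, for deletion in GMPs, -0.11 to 0.48 for Car1, -0.77 to 0.41 for Ermap and -0.32 to 0.21 for Gfi1b. In LSK cells it gave -0.23 to 0.36 for Gata1, -0.21 to 0.68 for Klf1, -0.0038 to 1.01 for Tfrc and -0.045 to 0.55 for Zfpm1. For the difference of effects it gave -0.54 to 0.70 for Epor, -0.28 to 1.03 for Ermap and -0.43 to 0.0045 for Nfe2, and between the controls -0.18 to 0.19 for Zfpm1. The difference of effects has no value from 2 groups alone, and Gata1 and Epor were not tested above the median level.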

Other observations

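A further carbonic anhydrase, Car3, known from fat, liver and slow muscle, was singled out after its values were seen. It was 11.67 and 12.37 on the close pair GMP-Dot K1190 and K1272, against 5.72 and 4.58 on GMP-Dot K1359 and K1421 and 4.55 to 7.13 in GMP-Control. In LSK-Dot it was 4.34 to 7.36, and the arrays numbered K1190 and K1272 there had 5.90 and 4.34. The same 2 GMP-Dot arrays were the high ones for Epor and for the Tfrc probe set 1422966_a_at.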
